A study of Mus musculus with 5 samples.

Results

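The chemokine and chemokine receptor genes of the mouse were taken as all genes with a Ccl, Cxcl, Ccr or Cxcr symbol followed by a digit, together with Cx3cl1, Cx3cr1, Xcl1, Xcr1 and Ackr1 to Ackr4. This rule on symbols, which uses no measured value, gave 63 of 51912 genes listed, namely 38 ligand genes, 19 receptor genes, 4 atypical receptor genes and 2 pseudogenes of Ccl19. Chemokines are small secreted proteins that set up gradients along which leukocytes and other cells move, and they are sorted into CC, CXC, CX3C and XC families by the spacing of their first cysteines. They act through G protein-coupled receptors that signal through inhibitory G proteins, while atypical receptors bind the same ligands without that signal and take them out of the tissue. Homeostatic chemokines are made steadily by stroma, epithelium and vessels, whereas inflammatory ones are switched on by cytokines such as TNF and interferon-gamma. In the prostate, stromal CXCL12 and its receptor CXCR4 are best known from work on epithelial growth and on the spread of prostate cancer.

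They were read in total RNA of the mouse dorsolateral prostate, the dorsal and lateral lobes of a gland that secretes part of the seminal fluid. The 2 libraries labelled Ghr deletion came from male Ghrflox/flox;ROSA26Cre-ERT2+/0 mice, in which a tamoxifen-inducible Cre expressed from the widely active ROSA26 locus can remove the flanked part of the growth hormone receptor gene in any tissue. The 3 libraries labelled Tamoxifen-control came from male Ghrflox/flox mice, whose labels give no Cre allele. All mice were 3 months old, all were given 250 mg/kg tamoxifen each day over 5 days, and the prostate was taken 1 month after the last dose, so tamoxifen is shared by both groups while the Cre allele is not. The question posed is what the prostate expresses once this receptor is lost. The libraries are biological replicates by the design text, and nothing in the labels says that a number pairs a deletion mouse with a control mouse.

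Library depth was 31740687 and 32782683 expected counts in Ghr deletion replicates 1 and 2, against 19517831, 29705618 and 41553558 in Tamoxifen-control replicates 1, 2 and 3. Levels compared between libraries are in CPM, the count scaled to the library size after TMM correction. Ghr itself stood at 21.5 and 10.2 CPM in the deletion libraries and at 10.1, 11.8 and 13.2 CPM in the controls. With a log2 fold change of 0.44 (SE 0.35, edgeR adjusted p = 0.874), its summed count does not show a deletion, and the groups are named by their labels. A count summed over the gene need not change when only the flanked part is lost, so this value does not show that the deletion failed. Some genes of the seminal vesicle, a neighbouring gland, set libraries apart. Svs1 had 0.045 and 7.90 CPM in the deletion libraries against 32910, 22530 and 58.6 CPM in the controls. Controls 1 and 2 were both highest for 6 of the 8 seminal vesicle genes listed, but not for Svs2 and Pate4. Svs2 had 67730 and 118600 CPM in the deletion libraries against 68560, 47360 and 140500 CPM in the controls. The list summed to between 105000 CPM (deletion replicate 1) and 451700 CPM (control replicate 1). In deletion replicate 1 most of that sum was Svs2, while Svs3a, Svs3b and Svs6 had 0.105, 0.508 and 5.94 CPM. Every library thus held RNA of some of these genes, but the sum does not stand for each of them. The marker Pbsn of the prostate secretory epithelium had 0.045 and 8.76 CPM in the deletion libraries against 11.1, 475 and 0.816 CPM in the controls, and so was near 0 in Ghr deletion replicate 1 and low in control replicate 3. The part of this difference in tissue make-up in any chemokine result was not tested. In tissue RNA of this kind, fewer cells of a type and less RNA per cell cannot be told apart.

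The sequence just upstream of a gene holds part of what sets its level, and it is shown here for 2 ligand genes that were abundant in this tissue and 2 that were close to 0. RefSeq start sites on GRCm38.p6 were matched for 46 of the 63 genes. In the window from 250 to 31 bases before the start, 2 motifs were searched on both strands, GGANTTTCC, a form of the site bound by NF-kB, and GGGCGG, the GC box bound by Sp1-type factors. The windows of Cxcl12 (chr6:117168285-117168504, plus strand) and Cxcl14 (chr13:56296582-56296801, minus strand), the most abundant ligand genes, and of Cxcl1 (chr5:90890995-90891214, plus strand) and Cxcl2 (chr5:90903649-90903868, plus strand), inflammatory neutrophil attractants with almost no reads, are printed 5′ to 3′ along the gene, with matches to either motif in capitals.
Cxcl12: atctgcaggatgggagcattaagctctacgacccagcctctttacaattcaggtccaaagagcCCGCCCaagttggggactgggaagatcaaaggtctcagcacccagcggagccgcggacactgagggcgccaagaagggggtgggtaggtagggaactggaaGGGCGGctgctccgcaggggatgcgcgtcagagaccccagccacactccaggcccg
Cxcl14: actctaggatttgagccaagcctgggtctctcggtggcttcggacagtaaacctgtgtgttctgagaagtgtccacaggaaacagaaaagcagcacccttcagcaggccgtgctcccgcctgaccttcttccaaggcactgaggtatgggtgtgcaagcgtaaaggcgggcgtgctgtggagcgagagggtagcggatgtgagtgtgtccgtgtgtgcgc
Cxcl1: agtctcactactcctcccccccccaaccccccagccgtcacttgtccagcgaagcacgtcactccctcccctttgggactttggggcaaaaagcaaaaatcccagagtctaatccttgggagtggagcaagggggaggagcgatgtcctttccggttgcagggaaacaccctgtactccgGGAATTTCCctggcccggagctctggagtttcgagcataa
Cxcl2: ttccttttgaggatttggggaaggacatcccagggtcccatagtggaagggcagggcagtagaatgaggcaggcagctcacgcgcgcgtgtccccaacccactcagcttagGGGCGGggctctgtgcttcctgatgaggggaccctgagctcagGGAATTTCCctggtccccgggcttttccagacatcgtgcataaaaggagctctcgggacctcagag
Cxcl1 and Cxcl2 each held 1 NF-kB-type match, 70 bases before the start of Cxcl1 and 96 bases before that of Cxcl2, with the same letters, GGAATTTCC. Cxcl12 held GC boxes 187 bases (on the opposite strand) and 86 bases before its start, Cxcl2 held 1 GC box 139 bases before its start, and Cxcl14 held neither motif in this window. Among all ligand genes with a window, 4 of 27 held the NF-kB-type motif (Cxcl1, Cxcl2, Cxcl3 and Cxcl10), against 0.969% of 32524 promoters, and 4 of 27 held a GC box (Ccl27a, Ccl28, Cxcl12 and Cxcl2), against 28.7% of all promoters. Receptor genes held the NF-kB-type motif in 1 of 15 (Ccr3) and a GC box in 2 of 15 (Cxcr1 and Cxcr4), and atypical receptor genes in 0 of 4 and 1 of 4 (Ackr3). A gene counted if any of its windows matched, whereas the share over all promoters is per promoter, so the measures differ. Cxcl1, Cxcl2 and Cxcl3 lie in the same array on chromosome 5, so their matches need not be independent. Only 27 of the 38 ligand genes had a window, and Ccl2, Ccl5, Ccl11 and Cxcl16 were among those without. A match is only a run of letters, and binding was not measured.

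A few ligands made up most of the chemokine ligand RNA of the prostate, averaged over libraries. Between genes, levels are given as TPM, a share of the library's transcripts that corrects for transcript length. Over the 5 libraries Cxcl12 averaged 21.2 TPM, Cxcl14 11.7 TPM, Cxcl16 9.85 TPM and Ccl21a 7.64 TPM, and these 4 genes held 65.8% of the summed mean TPM of all ligand genes. Cxcl12 alone held 27.7%. The next were Ccl11 (4.01 TPM), Cx3cl1 (3.62 TPM), Ccl27a (3.13 TPM), Ccl25 (3.04 TPM), Ccl8 (2.53 TPM), Ccl5 (2.2 TPM), Xcl1 (1.50 TPM) and Ccl12 (1.31 TPM). Every other ligand gene averaged at most 1.11 TPM, the value of Ccl6.

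The order held only in part within libraries. Cxcl12 exceeded Cxcl14 in all 5 libraries, and the pair lay closest in control replicate 3, at 17.0 and 14.7 TPM. Cxcl16, in contrast, was the highest ligand gene in control replicate 2, where it had 6.66 TPM against 4.30 TPM for Cxcl12, and it was below Cxcl14 in both deletion libraries and in control replicate 3. Ccl21a lay between 0.36 TPM in control replicate 2 and 21.1 TPM in Ghr deletion replicate 1. Control replicate 2 had the lowest TPM for each of the 12 leading ligand genes except Cxcl16, Ccl5 and Xcl1. TPM is a share of the whole library, so it also falls where very abundant secretory transcripts take more of it, and differences between libraries are therefore given as TMM-scaled CPM below.

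**Figure D1:**
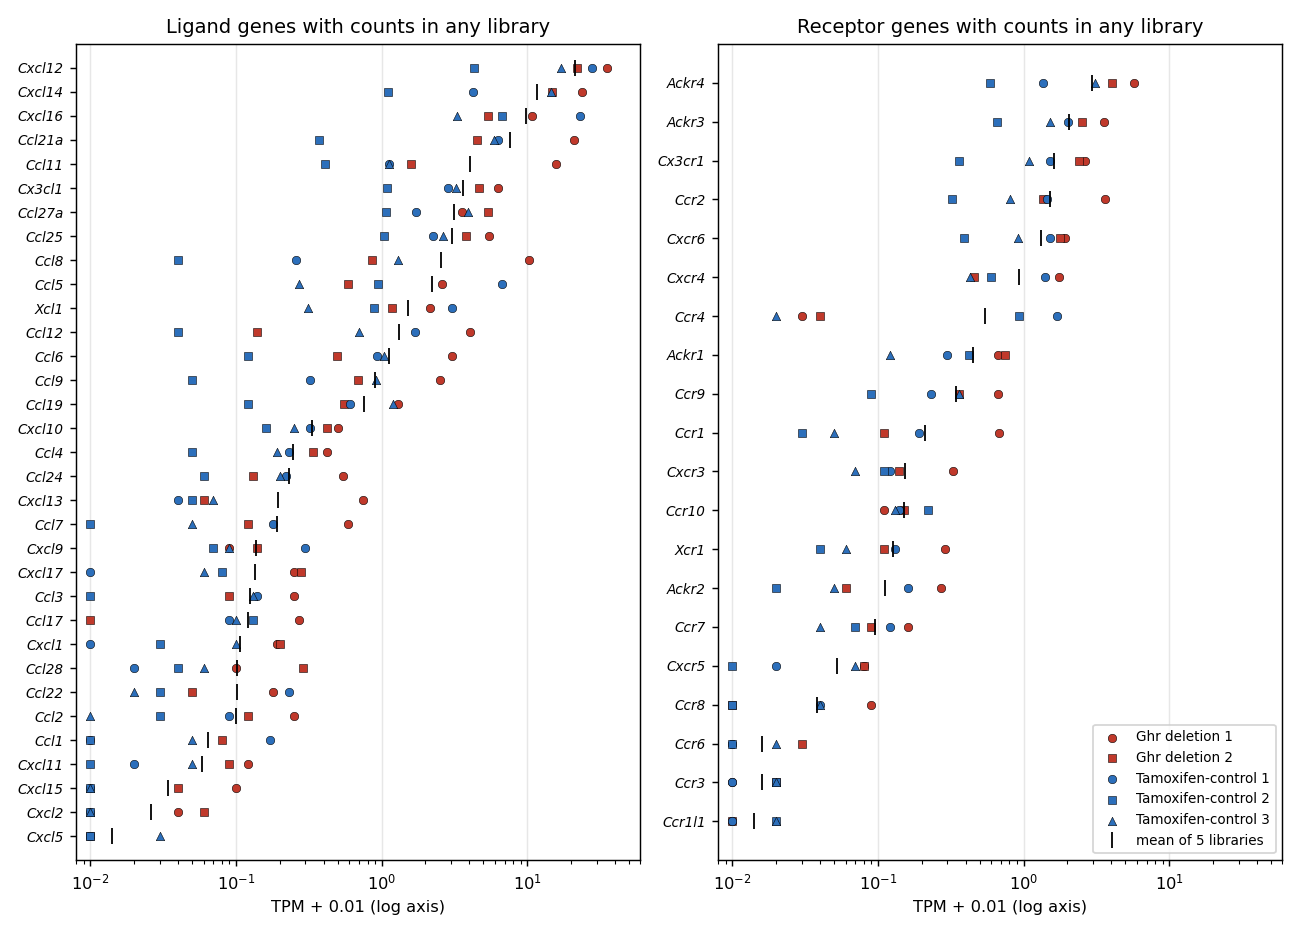
TPM of ligand genes (left) and receptor genes (right) with counts in any library, 1 point per library (red, Ghr deletion; blue, Tamoxifen-control; circle, square and triangle, replicates 1, 2 and 3), with the mean of the 5 libraries as a tick, on a log axis after adding 0.01. Cxcl12 leads the ligands at a mean of 21.2 TPM and Ackr4 the receptors at 2.95 TPM, and the blue squares of control replicate 2 lie lowest for most genes.

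Grouped by known use, the 10 homeostatic ligand genes summed to a mean of 47.8 TPM, the 19 inflammatory ones to 11.6 TPM and the 9 others to 17.3 TPM. Ghr deletion replicate 1 decided the inflammatory sum, which was 35.6 and 4.82 TPM in the deletion libraries against 11.3, 1.74 and 4.39 TPM in the controls and averaged 5.56 TPM without that library. Most inflammatory ligands were low: only 6 of the 19 passed the filter on low counts, and their summed level rested on Ccl11, Ccl8, Ccl5 and Ccl12. The CXC ligands that draw neutrophils were at the floor, with Cxcl1, Cxcl2, Cxcl3 and Cxcl5 summing to 0.116 TPM and none of them passing the filter. Cxcl1 had 6 and 8 counts in the deletion libraries and 0, 2 and 6 in the controls. Their receptors Cxcr1 and Cxcr2 had no count in any library, which leaves room for a level of up to 3 counts per library, or 0.0661 to 0.185 CPM. Of the 10 neutrophil markers listed, Ly6g, Retnlg and Elane were also at 0, while 7 had counts. Csf3r, which passed the filter, had 0.75 and 0.63 CPM in the deletion libraries against 0.74, 0.62 and 0.51 CPM in the controls. The list summed to 135 and 29.3 CPM in the deletion libraries against 11.2, 10.7 and 21.8 CPM in the controls. Nearly all of that sum was lactoferrin, Ltf, which secretory epithelium also makes. Ltf had 134 and 28.6 CPM in the deletion libraries against 10.4, 9.77 and 21.2 CPM in the controls.

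Receptor genes were read at lower summed levels than ligand genes, and the atypical receptors Ackr4 and Ackr3 had the highest means. The order changed between libraries, since Ccr4 was the highest receptor gene in control replicate 2, at 0.92 TPM against 0.65 TPM for Ackr3 and 0.58 TPM for Ackr4. Ackr4, which takes up Ccl19, Ccl21 and Ccl25, averaged 2.95 TPM, and Ackr3, which takes up Cxcl12, averaged 2.06 TPM. Acad11, which overlaps Ackr4 on the opposite strand, had 1896 and 2069 counts in the deletion libraries and 761, 706 and 2225 in the controls. Ackr4 had 424 and 390 counts in the deletion libraries and 94.1, 118 and 458 in the controls, and reads may be shared. Signalling receptors followed with Cx3cr1 of macrophages and monocytes at 1.60 TPM, Ccr2 of inflammatory monocytes at 1.50 TPM, Cxcr6, the receptor of Cxcl16, at 1.3 TPM and Cxcr4 at 0.92 TPM. Ccr4, a receptor of T cells, averaged 0.53 TPM and Ackr1, the Duffy antigen receptor of venules, 0.44 TPM. Together the 19 signalling receptor genes summed to a mean of 7.36 TPM and the 4 atypical ones to 5.55 TPM, against 76.6 TPM for the 38 ligand genes.

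Known ligand and receptor partners were unevenly matched in level. Cxcl12 at 21.2 TPM stood beside Cxcr4 at 0.92 TPM and the scavenger Ackr3 at 2.06 TPM, and Cxcl16 at 9.85 TPM stood beside Cxcr6 at 1.3 TPM. Cx3cl1 (fractalkine) and Cx3cr1 were closer, at 3.62 and 1.60 TPM. For Ccl21a at 7.64 TPM, the lymph node homing receptor Ccr7 had only 0.086 TPM, less than the scavenger Ackr4 at 2.95 TPM. Eotaxin, Ccl11, averaged 4.01 TPM, or 1.05 TPM without Ghr deletion replicate 1, while its receptor Ccr3, carried by eosinophils, averaged 0.006 TPM, with 0 and 2 counts in the deletion libraries and 0, 2 and 2 in the controls. Of the eosinophil markers, Prg2 was at 0 in all libraries, and Epx had 0.25 and 0.18 CPM in the deletion libraries against 0, 0.103 and 0.838 CPM in the controls. Siglecf, also an eosinophil marker, had some counts but did not pass the filter on low counts. The monocyte receptor Ccr2, at 1.50 TPM, stood beside Ccl2 at 0.09 TPM, Ccl7 at 0.18 TPM and Ccl12 at 1.31 TPM, each of which binds it in the mouse.

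Many of these genes lie in arrays of neighbouring copies, with 14 members on chromosome 9, 14 on chromosome 11 and 11 on chromosome 5 (GRCm38, GENCODE M21). The CXC ligand array on chromosome 5 (90759360 to 92365485) held 8 genes, of which the highest, Cxcl10, averaged 0.32 TPM. In the CC ligand array on chromosome 11 (82035571 to 83664683) the 11 genes ran from Ccl1 at 0.054 TPM to Ccl11 at 4.01 TPM. The receptor array on chromosome 9 (123678439 to 124147699) held 8 genes, led by Ccr2 at 1.50 TPM. The most abundant ligands, Cxcl12 on chromosome 6 (117168535 to 117181367, plus strand) and Cxcl14 on chromosome 13 (56288643 to 56296551, minus strand), lie outside these arrays.

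All 63 genes can be accounted for as follows. The filter on low counts passed 35 of them, namely 19 ligand, 12 receptor and 4 atypical receptor genes, and only these were tested. Another 19 had some counts, at most 27 in a library (Cxcl13, in Ghr deletion replicate 1) and at most a mean of 0.236 TPM (Ccl4). The remaining 9 had no count in any library: Ccl20, Ccl21b, Ccl26, Ccl27b, Cxcl3, Cxcr1, Cxcr2, Ccl19-ps1 and Ccl19-ps3. Ccl21b and Ccl27b are near copies of Ccl21a and Ccl27a, and expected counts of such copies depend on how the model shared out reads. Exons of 11 members overlap another gene, among them Cxcl16 with Zmynd15, Ackr4 with Acad11, Ccl25 with Elavl1, Ccl27a with Il11ra1 and Cxcl10 with Art3 on the opposite strand, and Ackr1 with Cadm3 on the same strand; reads of such pairs may be shared.

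Between the libraries labelled Ghr deletion and the controls, no chemokine or receptor gene passed the test. By edgeR's quasi-likelihood test, 0 of the 35 tested members were higher and 0 lower at an adjusted p under 0.05, where 0.0% of all 18590 genes were called in each direction. The smallest adjusted p among members was 0.874. At an unadjusted p under 0.05, 0 members were higher, against 1.16% of all genes, and 1 was lower (Ccr4), against 3.1% of all genes. By DESeq2, 0 members were called higher, against 0.108% of all genes, and 1 was called lower (Ccr4, adjusted p = 0.0279), against 0.328% of all genes. Of the 35 tested members, 0 had both deletion libraries above every control, where 10.8% of all genes tested did, and 1 (Ccr10) had both below every control, where 12.5% of all genes tested did. Among the members left untested, Cxcl1, Cxcl2 and Cxcl15 had both deletion libraries above every control in CPM, on at most 8 counts in a library.

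The size of change that could have been seen was large. The 95% interval of the log2 fold change held 0 for 34 of the 35 members, and the median standard error was 0.78 for members against 0.37 for all genes tested. The median log2 fold change was -0.25 for the members, with 14 above 0 and 21 below, -0.10 for the 19 ligand genes and -0.34 for the 16 receptor genes, against -0.0063 for all genes tested, of which 49.4% were above 0. Without control replicate 1 the medians were 0.090 for ligand genes and 0.043 for receptor genes. Only 32 of the 35 members passed the filter then, with Ccr4 among those lost, so the set of genes changed as well. With 2 against 3 libraries, an exact two-sided test of 1 value cannot give a p below 0.2, so p-values here come from the model across genes.

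**Figure D2:**
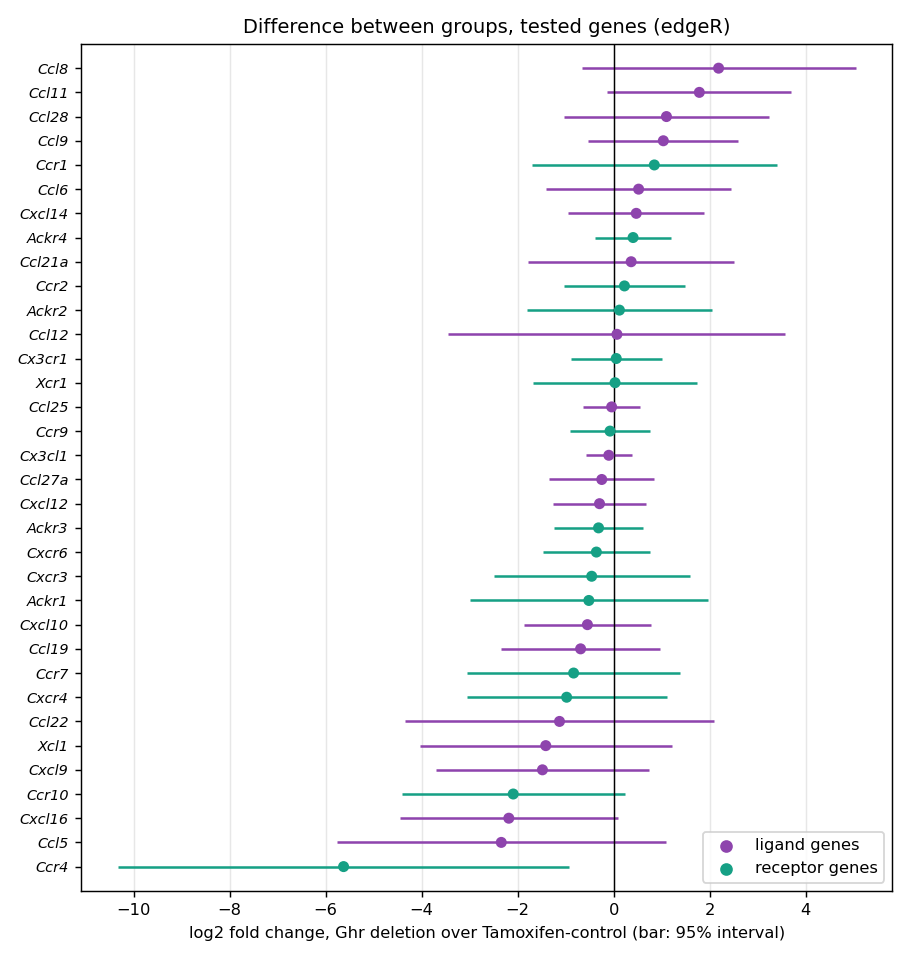
Log2 fold change (Ghr deletion over Tamoxifen-control) for 34 of the 35 tested genes, sorted by value, with 95% intervals from edgeR's quasi-likelihood fit (purple, ligand genes; green, receptor genes, atypical ones included). Every interval drawn crosses 0 except that of Ccr4 at -5.63, and Ccl8 at 2.19 is the highest value.

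Ccr4 (ENSMUSG00000047898), a receptor for Ccl17 and Ccl22 on T helper cells, had the smallest p among the members. It was read with 2 and 4 counts in the deletion libraries, against 81, 123 and 3 counts in controls 1, 2 and 3, or 0.045 and 0.101 CPM in the deletion libraries against 5.00, 6.32 and 0.066 CPM in the controls. Control replicates 1 and 2 were thus high, and control replicate 3 lay with the deletion libraries near the floor of 3 counts. The log2 fold change was -5.63 (SE 1.91, 95% interval -10.32 to -0.93, unadjusted p = 0.0263, adjusted p = 0.874 by edgeR), and a fitted fold this close to 0 counts depends on the prior count. The mean Ccr4 transcript length that RSEM weighted by abundance was 2374 and 2805 bases in the deletion libraries, against 1412, 1439 and 2805 bases in the controls. GENCODE M21 lists Ccr4 transcripts of 2805, 1382 and 339 bases. In the deletion libraries and control replicate 3 these lengths rest on 2, 4 and 3 counts, too few to show which transcripts were present. The mean was thus shorter in the libraries where Ccr4 was high, and several mixtures of these transcripts can give it. Its ligands were low, Ccl22 at a mean of 0.092 TPM and Ccl17 at 0.11 TPM. Ccr4 did not pass the filter on low counts once control replicate 1, control replicate 2 or both were left out, and without control replicate 3 it was called lower by edgeR (log2 fold change -6.22, adjusted p = 0.0465). Over all alternatives its adjusted p ran between 0.000107 and 1.

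The same order of libraries was seen in further members, though not with gaps of the same size. In 13 of 35 members (37.1%) control replicates 1 and 2 were both above the other 3 libraries, where 17.2% of all genes tested were, and in 3 members (8.57%: Ackr4, Ccl8 and Cxcl14) both were below, where 19.2% of all genes were. Besides Ccr4 the 13 included the ligand genes Ccl5, Ccl25, Cx3cl1, Cxcl9, Cxcl10, Cxcl16 and Xcl1 and the receptor genes Ccr7, Ccr10, Cxcr3 and Cxcr4, among them several made by T and NK cells. The count takes order only. For Cx3cl1 the gap was from 17.3 CPM in control replicate 2 to 16.7 CPM in deletion replicate 1, and Ccr7 rested on 4 to 11 counts per library. Summed T and NK cell markers were 5.90 and 3.94 CPM in the deletion libraries against 25.6, 11.3 and 2.98 CPM in controls 1, 2 and 3, and 6 of their 9 tested genes were highest in the same 2 controls. Cd3g, part of the T cell receptor complex, had 0.817 and 0.757 CPM in the deletion libraries against 4.57, 2.42 and 0.287 CPM in the controls. Summed seminal vesicle genes were 105000 and 183300 CPM in the deletion libraries against 451700, 234500 and 234700 CPM in the controls, with 6 of 8 highest in controls 1 and 2. Summed erythroid markers were 30.9 and 17.9 CPM in the deletion libraries against 66.7, 43.1 and 11.2 CPM in the controls, with 4 of 5 highest in controls 1 and 2. Whether any of these cells has a part in the chemokine values was not tested.

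Cxcl16, the transmembrane chemokine that draws Cxcr6-bearing T and NKT cells, was the abundant ligand with the widest gap. It had 12.3 and 9.30 CPM in the deletion libraries against 80.7, 59.0 and 8.03 CPM in controls 1, 2 and 3. The deletion libraries lay above control replicate 3 and far below the other controls, so the groups overlapped. Its log2 fold change was -2.18 (SE 0.92, 95% interval -4.45 to 0.09, unadjusted p = 0.0567, adjusted p = 0.874 by edgeR), and without controls 1 and 2 it was 0.43. Zmynd15, which overlaps it on the other strand, had 77.8 and 53.6 counts in the deletion libraries and 78.6, 161 and 74.0 in the controls, far fewer than Cxcl16, which had 543 and 368 counts in the deletion libraries and 1307, 1147 and 364 in the controls. Cxcr6, its receptor, had 2.86 and 3.58 CPM in the deletion libraries against 6.29, 3.55 and 2.62 CPM in the controls, with a log2 fold change of -0.36 (SE 0.45).

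Ccl5, Xcl1 and Cxcl9 were also highest in controls 1 and 2, while other chemokines that act on lymphocytes were not: Ccl21a was highest in deletion replicate 1 and Ccl19 in control replicate 3. Ccl5, made by T and NK cells, had 0.703 and 0.227 CPM in the deletion libraries against 5.31, 1.80 and 0.154 CPM in the controls, and its log2 fold change was -2.34 (SE 1.39). Xcl1, the ligand by which T and NK cells draw cross-presenting dendritic cells, had 0.567 and 0.429 CPM in the deletion libraries against 2.35, 1.59 and 0.154 CPM in the controls (log2 fold change -1.41, SE 1.06). Cxcl9, which interferon-gamma induces and which draws Cxcr3-bearing T cells, had 0.181 and 0.278 CPM in the deletion libraries against 0.926, 0.925 and 0.154 CPM in the controls (log2 fold change -1.48, SE 0.90). For each of these ligands the deletion libraries lay between control replicate 3 and the other controls, and none passed the test. Counts behind them were small, 7 to 86 per library for Ccl5 and 7 to 18 for Cxcl9. Without controls 1 and 2 the log2 fold changes were 1.59 for Ccl5, 1.68 for Xcl1 and 0.56 for Cxcl9.

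**Figure D3:**
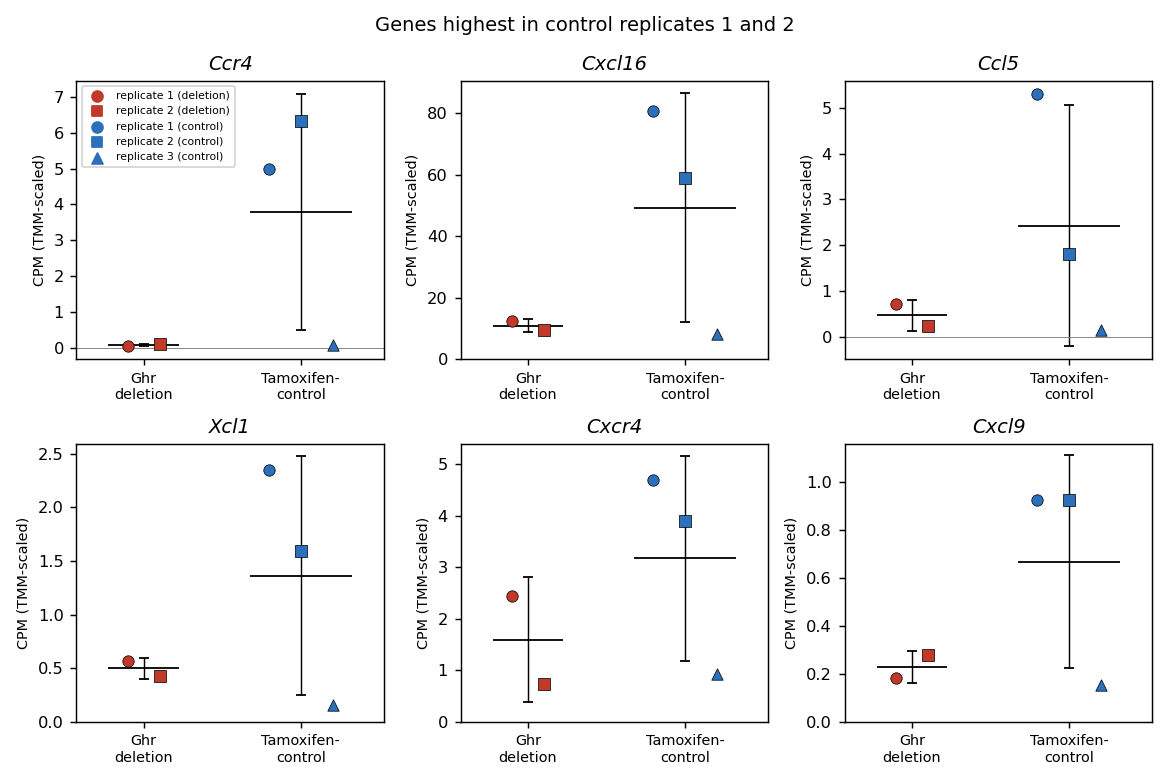
TMM-scaled CPM of Ccr4, Cxcl16, Ccl5, Xcl1, Cxcr4 and Cxcl9 by library, deletion-labelled libraries left (red) and controls right (blue), with the group mean as a horizontal line and 1 SD as the bar. In each panel control replicates 1 and 2 lie highest and control replicate 3 lies near the deletion libraries, as for Cxcl16 at 80.7, 59.0 and 8.03 CPM.

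Cxcr4, the signalling receptor of Cxcl12, had 2.45 and 0.732 CPM in the deletion libraries against 4.69, 3.91 and 0.926 CPM in the controls. The lowest value was a deletion library and the next lowest a control, and the log2 fold change was -0.98 (SE 0.85, 95% interval -3.06 to 1.10). Ccr10, the receptor of Ccl27 and Ccl28 at epithelial surfaces, was the single tested member whose groups did not overlap, with 0.136 and 0.252 CPM in the deletion libraries against 0.494, 1.75 and 0.309 CPM in the controls. That separation rested on 6 and 10 counts in the deletion libraries against 8, 34 and 14 in the controls, and the log2 fold change was -2.09 (SE 0.94, 95% interval -4.42 to 0.23). Its ligand Ccl27a had 1.52 and 2.81 CPM in the deletion libraries against 1.81, 2.85 and 3.00 CPM in the controls, a log2 fold change of -0.25 (SE 0.45).

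Among the other receptors the groups overlapped closely. Cx3cr1 had 7.71 and 9.26 CPM in the deletion libraries against 12.3, 6.48 and 5.84 CPM in the controls (log2 fold change 0.05, SE 0.39). Ccr2 had 11.4 and 5.52 CPM in the deletion libraries against 11.5, 5.34 and 4.89 CPM in the controls (log2 fold change 0.22, SE 0.51). Replicate 1 was the higher library of each group for Ccr2 and carried most of its spread. The scavenger Ackr3 had 8.37 and 7.19 CPM in the deletion libraries against 14.3, 7.71 and 7.10 CPM in the controls, where control replicate 1 alone stood high (log2 fold change -0.31, SE 0.37). Ackr4 had 9.61 and 9.84 CPM in the deletion libraries against 5.81, 6.04 and 10.1 CPM in the controls, the mirror image of the Ccr4 pattern, with a log2 fold change of 0.40 (SE 0.32). Ackr1 had 0.544 and 0.833 CPM in the deletion libraries against 0.679, 2.16 and 0.176 CPM in the controls (log2 fold change -0.52, SE 1.01), and its same-strand neighbour Cadm3 was likewise highest in control replicate 2, at 282 counts against 132 and 129 in the deletion libraries and 59 and 104 in controls 1 and 3.

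Stromal and myeloid ligands were among the genes with the highest positive values, and for these a single library decided the value. Ccl11 (eotaxin), made by fibroblasts and smooth muscle, had 12.1 and 1.64 CPM in deletion replicates 1 and 2 against 2.41, 1.95 and 1.63 CPM in the controls. Deletion replicate 2 lay among the controls while deletion replicate 1 stood well above every other library. The log2 fold change was 1.79 (SE 0.78, 95% interval -0.13 to 3.70, unadjusted p = 0.0625, adjusted p = 0.874 by edgeR), and without deletion replicate 1 it was -0.28. Ccl8, made by macrophages, had 2.61 and 0.303 CPM in the deletion libraries against 0.185, 0.0514 and 0.639 CPM in the controls, or 115 and 12 counts in the deletion libraries against 3, 1 and 29 in the controls. Its log2 fold change was 2.19 (SE 1.16), and without deletion replicate 1 it was -0.032. Ccl9, a rodent ligand of Ccr1 made by myeloid cells, had 3.08 and 0.984 CPM in the deletion libraries against 1.11, 0.565 and 1.28 CPM in the controls (log2 fold change 1.03, SE 0.63), and without deletion replicate 1 it was -0.010.

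Ghr deletion replicate 1 was the highest library for 6 of 35 members (17.1%), Ccl6, Ccl8, Ccl9, Ccl11, Ccl21a and Ccr1, and for 18.7% of all genes tested. Summed fibroblast markers were 3318 and 1456 CPM in the deletion libraries against 1463, 958 and 2637 CPM in the controls, and summed macrophage and monocyte markers 206 and 102 CPM in the deletion libraries against 159, 118 and 123 CPM in the controls. In that library 6 of 9 tested fibroblast markers and 7 of 11 tested macrophage and monocyte markers were highest. Summed endothelial markers (156 and 101 CPM in the deletion libraries against 128, 84.3 and 112 CPM in the controls) and luminal epithelial markers (2245 and 1352 CPM in the deletion libraries against 2182, 1848 and 1428 CPM in the controls) were also highest in deletion replicate 1. The part of any of these cell types in the chemokine values was not tested.

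Ccl21a, the lymphatic ligand of Ccr7, had 12.1 and 3.53 CPM in the deletion libraries against 10.3, 1.33 and 6.59 CPM in the controls, with replicate 1 the highest and replicate 2 the lowest of each group. Its log2 fold change was 0.36 (SE 0.87). Summed lymphatic endothelial markers were 56.1 and 30.9 CPM in the deletion libraries against 50.5, 30.4 and 39.5 CPM in the controls. The sum places the libraries in the same order, but of the 6 markers only Mmrn1 did so by itself. Prox1, Lyve1, Flt4, Pdpn and Reln each gave another order. The part of lymphatic endothelium in the Ccl21a values was not tested. Ccl12, a mouse monocyte attractant, had 1.11 and 0.0505 CPM in the deletion libraries against 1.3, 0.0514 and 0.375 CPM in the controls, again with replicate 2 lowest in each group (log2 fold change 0.07, SE 1.43).

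Unlike Cxcl16 and Ccl11, the ligand genes Cxcl12, Cxcl14, Cx3cl1 and Ccl25 had log2 fold changes smaller than their standard errors. Cxcl12, the stromal ligand of Cxcr4, averaged 73.7 ± 8.1 CPM in the deletion libraries (SD, n = 2) and 90.4 ± 42 CPM in the controls (SD, n = 3). Its values were 79.4 and 68.0 CPM in the deletion libraries against 139, 60.8 and 71.4 CPM in the controls, where control replicate 1 stood alone above the rest and the log2 fold change was -0.29 (SE 0.39, 95% interval -1.26 to 0.67). Cxcl14, a chemokine of epithelia and fibroblasts, had 33.6 and 28.5 CPM in the deletion libraries against 16.9, 9.71 and 40.3 CPM in the controls (log2 fold change 0.47, SE 0.58). Here controls 1 and 2 were the lowest libraries and control replicate 3 the highest. Cx3cl1 was the steadiest member, with 16.7 and 15.8 CPM in the deletion libraries against 19.4, 17.3 and 15.6 CPM in the controls, a log2 fold change of -0.10 (SE 0.19) and a 95% interval from -0.58 to 0.37. Ccl25 had 9.17 and 9.72 CPM in the deletion libraries against 10.6, 10.7 and 7.89 CPM in the controls (log2 fold change -0.04, SE 0.24). These intervals do not show that the levels were equal.

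**Figure D4:**
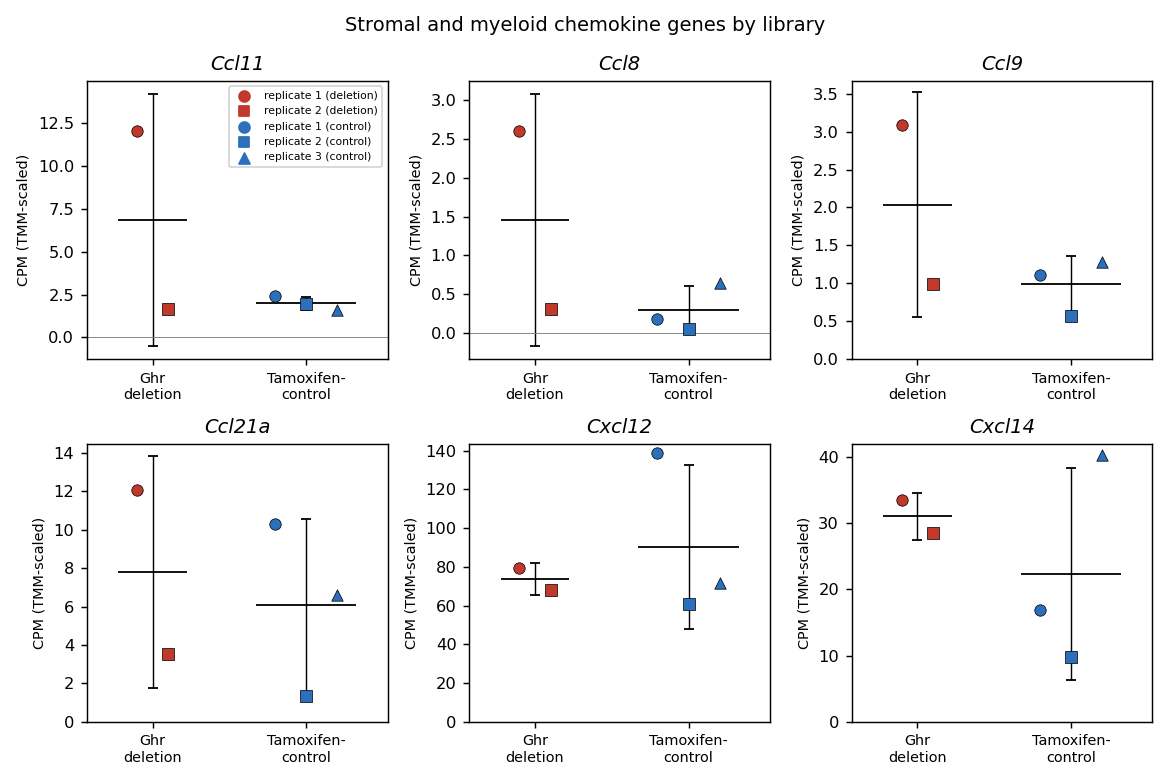
TMM-scaled CPM of Ccl11, Ccl8, Ccl9, Ccl21a, Cxcl12 and Cxcl14 by library, drawn as deletion-labelled libraries left (red) and controls right (blue), with the group mean and 1 SD. Deletion replicate 1 lies far above deletion replicate 2 for Ccl11 (12.1 and 1.64 CPM), Ccl8 and Ccl9, while the Cxcl12 and Cxcl14 values of the deletion libraries lie within the range of the controls.

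The other genes of the chemokine pathway gave no call either. Of 51 genes outside the symbol rule, covering ligands and receptors named otherwise, G proteins and signal relay, desensitisation, ligand processing and heparan sulphate presentation, 47 were tested, and 0 were called higher and 0 lower by edgeR or by DESeq2. Their median log2 fold change was -0.14, against -0.0063 for all genes. At an unadjusted p under 0.05, 0 were higher, against 1.16% of all genes, and 3 (6.38%) were lower, Mif, Grk5 and Arrb2, against 3.1% of all genes. Mif, a cytokine that also binds Cxcr2 and Cxcr4, had 5.72 and 5.78 CPM in the deletion libraries against 12.0, 12.8 and 9.35 CPM in the controls, without overlap (log2 fold change -0.99, SE 0.25, unadjusted p = 0.00772, adjusted p = 0.874 by edgeR). Grk5, a kinase that switches off active G protein-coupled receptors, had 22.4 and 21.7 CPM in the deletion libraries against 35.6, 30.5 and 35.5 CPM in the controls (log2 fold change -0.62, SE 0.18), also without overlap. For both genes even the lowest control lay above each deletion library, a separation that 12.5% of all genes showed. Arrb2, the arrestin that carries them into the cell, had 16.1 and 21.0 CPM in the deletion libraries against 42.5, 43.2 and 20.6 CPM in the controls (log2 fold change -0.93, SE 0.38), with control replicate 3 among the deletion libraries. Cpm, a carboxypeptidase that trims chemokine ends, had 12.1 and 17.0 CPM in the deletion libraries against 26.3, 24.4 and 17.7 CPM in the controls (log2 fold change -0.64, SE 0.27). In all, 9 of the 47 (19.1%) had both deletion libraries below every control, against 12.5% of all genes, and 2 (4.26%) had both above, against 10.8%.

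Genes of chemokine induction, namely cytokines, their receptors, signalling genes and transcription factors, were also not called. By edgeR and by DESeq2, 0 of 23 tested genes out of 28 were called in each direction. At an unadjusted p under 0.05 by edgeR, 0 were higher and 1 (4.35%, Il17rc) was lower, against 3.1% of all genes. The cytokine genes Tnf, Ifng, Lta, Il6 and Il17a did not pass the filter on low counts, so they were not tested. Il17rc, a subunit of the IL-17 receptor, had 2.90 and 3.26 CPM in the deletion libraries against 6.23, 10.9 and 4.12 CPM in the controls (log2 fold change -1.20, SE 0.47). Tnfaip3, the NF-kB target that damps NF-kB signalling, had 17.2 and 19.6 CPM in the deletion libraries against 12.3, 13.4 and 15.5 CPM in the controls (log2 fold change 0.42, SE 0.20). Ifngr1, a chain of the interferon-gamma receptor, had 44.5 and 35.9 CPM in the deletion libraries against 32.1, 26.7 and 34.6 CPM in the controls (log2 fold change 0.37, SE 0.21). For both genes each deletion library lay above every control. Of the 23 inducers these 2 (8.7%) had both deletion libraries above every control, against 10.8% of all genes, and 6 (26.1%: Ifngr2, Il17rc, Ltb, Ltbr, Nfkb1 and Rela) had both below, against 12.5% of all genes. Ltb, the lymphotoxin subunit made by lymphocytes, had 0.182 and 0.227 CPM in the deletion libraries against 0.555, 0.720 and 0.287 CPM in the controls (log2 fold change -1.31, SE 0.64). Il6 and Il17a had no count in any library.

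**Figure D5:**
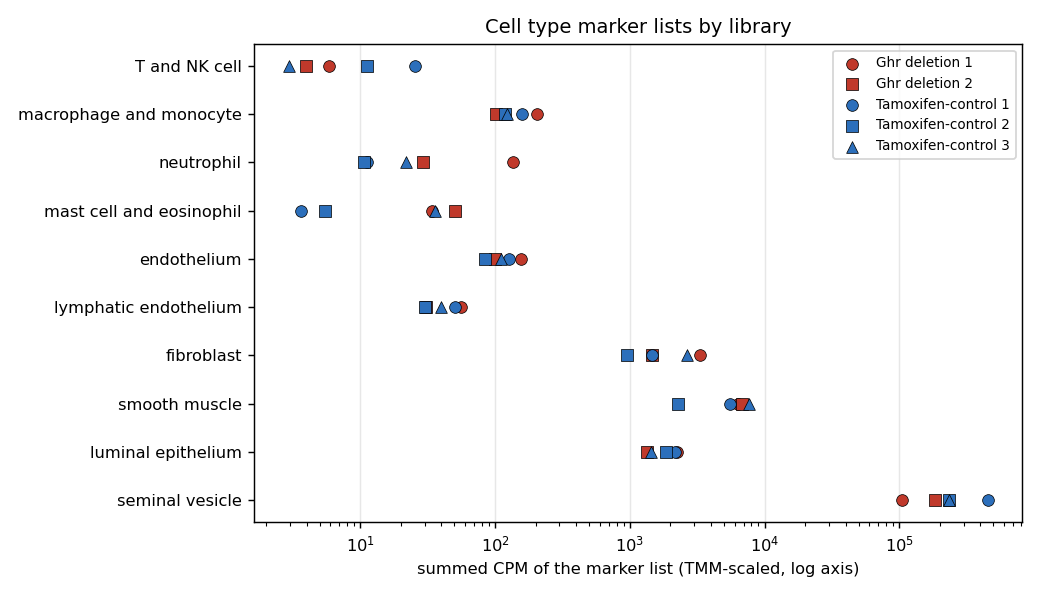
Summed TMM-scaled CPM of cell type marker lists by library on a log axis (red, Ghr deletion; blue, Tamoxifen-control; circle, square and triangle, replicates 1, 2 and 3). T and NK cell markers are highest in control replicates 1 and 2 (25.6 and 11.3 CPM), and fibroblast and macrophage markers are highest in Ghr deletion replicate 1 (3318 and 206 CPM).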

How the data were processed

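Per the labels' protocols, RNA of flash-frozen dorsolateral prostate was made into libraries with the TruSeq Stranded Total RNA kit. STAR 2.5.3a, RSEM 1.3.0, bcl2fastq 2.20.422 and the GRCm38 build are named in the submitters' processing notes. Neither the strand setting nor the annotation release is given in the sources used here. For each library 1 RSEM table was deposited, and per the file headers it holds expected counts, in which reads that match several genes are shared out by a model. TPM values, per the file headers, are these counts over effective length, as a share of the library. The effective length is another value per gene that the authors deposited.

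Groups came from the sample titles. Symbols were matched for 99.46% of gene identifiers through GENCODE M21. Expected counts were rounded, filtered with filterByExpr, scaled by TMM and tested over 18590 genes by edgeR 4.0.16 (quasi-likelihood test, R 4.3.3), with Benjamini-Hochberg adjustment at 0.05. Depth ran from 19517831 to 41553558 expected counts, and the biological coefficient of variation was 42.7%. The floor of 3 counts covers counting error only. The design text calls the libraries biological replicates. TMM factors were 1.39 and 1.21 in the deletion libraries and 0.831, 0.656 and 1.09 in the controls. This test was also run on simulated counts with planted fold changes and no differences in tissue make-up between libraries. That run does not show how the test performs on the present libraries.

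The members, the gene lists and the tests were chosen with earlier results of these data known, and the grouping of ligands as homeostatic or inflammatory was written after the files were read. Named members are the 12 ligand and 8 receptor genes with the largest mean TPM, the 8 tested members with the smallest p and any called gene, 23 in all. Of the other lists, the 4 genes with the smallest p were named. Svs1, Svs2, Svs3a, Svs3b, Svs6, Pate4, Pbsn, Ltf, Csf3r, Epx, Siglecf, Cd3g and the single lymphatic markers were named after their values were seen. So were further members with low or no counts. The values of 1 member are not reported here. Motifs were searched in RefSeq promoter sequences of GRCm38.p6. Alternatives were other scalings and filters, DESeq2 1.42.0, limma-voom (limma 3.58.1), log2 TPM with a pseudocount of 1 or 0.1, the 20 most abundant genes left out, libraries left out, and a replicate block.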

Additional observations from a re-analysis of the deposited data

How the results depend on the processing

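Calls depended on the test. Genes called higher over the whole table numbered 0 by edgeR, 2 without a filter on low counts, 20 by DESeq2, 2234 on log2(TPM + 1), 686 on log2(TPM + 0.1) and 552 with the replicate block, and those called lower numbered 0 by edgeR, 61 by DESeq2, 60 and 47 on the 2 TPM scales and 574 with the block. Among members, 4 were called higher on log2(TPM + 1), 2 on log2(TPM + 0.1) and 2 with the block, and 1 lower by DESeq2, 1 on each TPM scale and 3 with the block. In the pathway list 7 were called higher on log2(TPM + 1), 3 on log2(TPM + 0.1) and 3 with the block, with 1 lower under the block, and among the inducers 1 was called higher on log2(TPM + 1) and 1 lower with the block. The median of all genes shifted to 0.87 and 1.33 (log2) with TPM and to 0.58 with library size alone. Directions under these settings are relative to that shift, while their p-values are not. With each library left out in turn, calls over all genes ran from 0 to 15 higher and from 0 to 33 lower, both highest without control replicate 3, and calls among members from 0 to 0 higher and from 0 to 1 lower.

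Only replicate numbers 1 and 2 occur in both groups and the labels do not pair them, so the block is no check of the design. Deviations from the group mean correlated at 0.282 and 0.296 for same-numbered libraries, and at -0.296 and -0.282 for numbers 1 and 2 crossed. With 2 deletion libraries these deviations are mirror images, so the crossed values are fixed by the others and the correlations do not show pairing. Under the block Cxcl14, Cxcl16, Ccl5, Ccl8 and Ccr4 passed the threshold, and the log2 fold changes of Ccl12 (-0.18) and Cx3cr1 (-0.082) turned direction. Ccl11 and Ccl8 also passed it on both TPM scales, and Ccr4 there and by DESeq2.

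With controls 1 and 2 left out together, 1 control library remains and is assumed to vary like the deletion libraries. The median log2 fold change was then 0.48 for ligands and 0.54 for receptors, where leaving out 1 library at a time gave -0.52 to 0.090 for ligands and -0.56 to 0.043 for receptors. In the same setting the log2 fold changes that turned direction became 0.0485 for Cxcl12, -0.37 for Cxcl14, 0.43 for Cxcl16, 0.061 for Cx3cl1, 0.26 for Ccl25, 1.59 for Ccl5, 1.68 for Xcl1, -0.051 for Ackr4, 0.14 for Ackr3, 0.30 for Cxcr6, 0.79 for Cxcr4, 1.95 for Ackr1 and 0.56 for Cxcl9. On log2(TPM + 1) they became 0.17 for Cxcl12, 0.12 for Cx3cl1, 0.081 for Ccl25, -0.35 for Ccl12 and -0.043 for Ccl9, and on log2(TPM + 0.1) -0.55 for Ccl12. Library size alone gave 0.0030 for Ccl25, and limma-voom gave 0.0084 for Ccl25, -0.25 for Ccl12 and 0.47 for Ackr1.

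Leaving out 1 library turned 13 of the 23 named genes. Their ranges were -0.51 to 0.16 for Cxcl12, -0.78 to 0.99 for Ccl21a, -0.28 to 2.60 for Ccl11, -0.75 to 0.12 for Ccl27a, -0.18 to 0.033 for Ccl25, -0.032 to 3.62 for Ccl8, -3.37 to 1.31 for Ccl12, -0.50 to 0.071 for Ackr3, -0.15 to 0.46 for Cx3cr1, -0.39 to 0.72 for Ccr2, -0.61 to 0.065 for Cxcr6, -1.06 to 0.82 for Ackr1 and -0.010 to 1.64 for Ccl9. The cause of these changes was not tested beyond the libraries named. Of the members, 28 did not pass the filter on low counts and were not tested, and 23 stayed under 10 counts in every library, 9 of them with no count.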
